A study of Mus musculus with 37 samples.

Results

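The cerebral cortex of mice with 1 copy of a chromosome 7 segment was compared with the cortex of mice with 2 copies. The segment corresponds to human 16p11.2, a region whose loss and gain are linked to autism. The comparison holds every cortex sample labelled with 1 copy, from 2 df/+ mice that are heterozygous for the engineered deletion, and every cortex sample labelled with 2 copies, from 3 +/+ (wild type) mice. These 5 samples are among 31 region samples in the series, and they were read on 7 of its 37 arrays, since df/+ mouse 1 and +/+ mouse 3 were hybridised 2 times and the repeats were averaged. The 5 mice were males of 1 F1 hybrid strain (C57BL/6N:129Sv), the labels give no age, and each replicate is a separate mouse. The same mice also gave olfactory bulb, cerebellum and brain stem, and 2 dp/+ cortices with 3 copies are given only beside the results. The deletion is carried in every cell of the df/+ mice, so the comparison shows no single cell type, and in whole cortex fewer cells of a type and less RNA per cell cannot be told apart.

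The segment holds genes of unrelated function that lie side by side. Its proteins include kinases and phosphatases of signalling chains, an adaptor for ubiquitin ligases, sensors and partners of synaptic vesicles, enzymes of membrane lipids and glycolysis, and nuclear proteins of chromatin, splicing and DNA repair. Loss of 1 chromosome's copy leaves a single template for transcription, and the amount of messenger RNA then shows how far the remaining copy sets the level.

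Messenger RNA was measured as log2 array signal of 19938 genes, each represented by 1 probe set. Of 33 listed interval genes 30 were measured, while no probe set was assigned to Mapk3, Ino80e or Prrt2 alone. The median absolute difference between 2 arrays of 1 cortex sample was 0.08 log2 for df/+ mouse 1 and 0.07 for +/+ mouse 3, and between pairs of the 5 cortices it ran from 0.08 to 0.16. The widest pair was df/+ mouse 2 and +/+ mouse 2. Of 48 measured genes listed for cortical layers and pyramidal neurons, 28 were highest in the cortex among the 4 regions of +/+ mice, against 18.0% of all genes. So were 11 of 12 measured genes listed for striatal neurons, which lie beneath the cortex. The number of mice limits the precision of every value below.

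The interval genes as a group were lower in df/+ cortex. Their mean log2 value was 8.14 in df/+ mouse 1 and 8.13 in df/+ mouse 2, against 8.64, 8.64 and 8.62 in the 3 +/+ mice. The 2 df/+ values lay below the 3 +/+ values, and the spread within each genotype was small. The difference was −0.50 log2, with an SD of 0.01 among 2 df/+ mice and of 0.01 among 3 +/+ mice, so the mean stood at 70.9% of the +/+ level. The exact two-sided permutation test, with 10 ways to assign the genotypes, gave p = 0.1, the smallest that this design allows.

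Gene by gene, 15 of the 30 measured interval genes fell in df/+ cortex past an adjusted p of 0.05 and 0 rose (limma on the 31 region samples, the mouse being a random block, with Benjamini-Hochberg adjustment over 19938 genes). Over all genes 0.0752% were lower past this threshold, so the 15 interval genes were all of the genes that fell. These 15 stood at 22.6% to 71.3% of +/+ with a median of 61.2%, where 50% would be proportional to copy number. The 95% interval lay above that point for 12 of them and included it for Slx1b and Pagr1a, while for Gdpd3 it lay below. In 22 of the 30 genes both df/+ mice were below all 3 +/+ mice, against 14.3% of all genes. Of the 15 that did not pass, 5 had an unadjusted p below 0.05, as did 4.44% of all genes on the lower side. These percentages are those of array signal, which was not calibrated against amounts of RNA. The count was 5 without df/+ mouse 1 (Gdpd3, Slx1b, Pagr1a, Cdipt and Ppp4c), 1 without df/+ mouse 2 (Gdpd3) and 7 without +/+ mouse 2 (Gdpd3, Slx1b, Pagr1a, Cdipt, Taok2, Sez6l2 and Asphd1). Without +/+ mouse 1 it was 15, with Maz in place of Kctd13, and without +/+ mouse 3 it was 13, with Kctd13 and Tlcd3b lost. It was 9 when only the 7 cortex samples of the 3 genotypes were fitted, Maz among them, and 1 (Gdpd3) when only these 5 were.

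**Figure D1:**
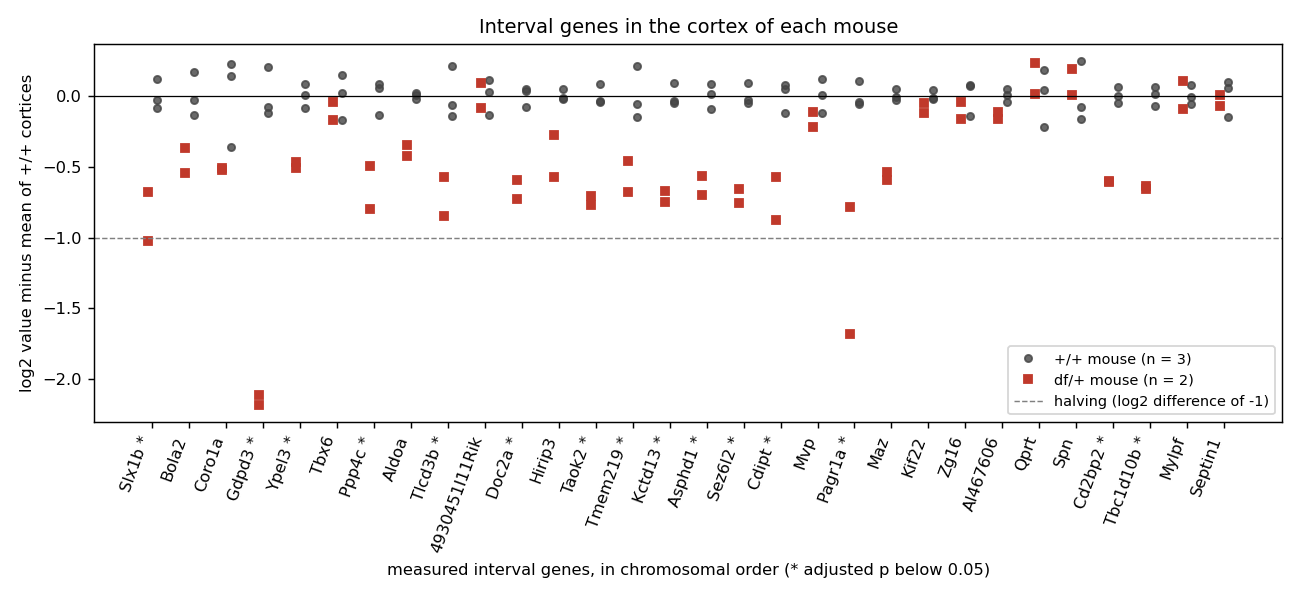
Log2 value of each measured interval gene in each cortex minus the mean of the +/+ cortices, with genes in chromosomal order (2 df/+ mice as squares, 3 +/+ mice as circles, a dashed line at −1). Squares lie below all circles for 22 of 30 genes, and only for Gdpd3 do both lie below the dashed line.

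The sequences next upstream of the start sites show how differently the promoters of these neighbours are built. The 250 bases before the first start listed by RefSeq (GRCm38.p6) were available for 24 of the 30 measured genes. They are shown for Gdpd3, the gene with the deepest fall; for Slx1b, whose upstream window shares 216 bases with that of the divergent gene Bola2; for Kctd13, which fell; and for Mylpf, which did not pass the threshold. Capitals mark matches on either strand to GGGCGG, a GC box, and to TATAAA, motifs that do not overlap in these windows.
Gdpd3, chr7:126766164-126766413, plus strand: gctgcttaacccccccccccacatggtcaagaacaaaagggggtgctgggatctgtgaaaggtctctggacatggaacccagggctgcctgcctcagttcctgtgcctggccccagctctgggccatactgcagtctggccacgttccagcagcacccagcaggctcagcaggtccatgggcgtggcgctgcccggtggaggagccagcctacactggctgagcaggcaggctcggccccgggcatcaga
Slx1b, chr7:126695784-126696033, minus strand: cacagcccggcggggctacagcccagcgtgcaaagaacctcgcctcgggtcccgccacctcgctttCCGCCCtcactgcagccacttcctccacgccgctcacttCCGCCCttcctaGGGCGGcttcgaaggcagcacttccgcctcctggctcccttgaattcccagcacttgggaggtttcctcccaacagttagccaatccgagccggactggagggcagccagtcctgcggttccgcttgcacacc
Kctd13, chr7:126928629-126928878, plus strand: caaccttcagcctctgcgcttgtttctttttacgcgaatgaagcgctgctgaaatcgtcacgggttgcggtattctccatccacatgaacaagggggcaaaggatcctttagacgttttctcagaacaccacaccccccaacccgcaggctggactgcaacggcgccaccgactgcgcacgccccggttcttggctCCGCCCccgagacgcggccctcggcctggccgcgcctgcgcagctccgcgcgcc
Mylpf, chr7:127211358-127211607, plus strand: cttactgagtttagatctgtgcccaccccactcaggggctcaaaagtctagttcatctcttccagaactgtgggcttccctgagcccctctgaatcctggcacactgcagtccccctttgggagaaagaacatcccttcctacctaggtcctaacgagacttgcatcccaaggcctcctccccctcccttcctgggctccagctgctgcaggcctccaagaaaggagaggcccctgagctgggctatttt
GGGCGG was found upstream of 5 of 11 genes that fell and 5 of 13 that did not pass the threshold, against 32.9% of 27025 genes in the reference. TATAAA was found upstream of 0 of the 11 and of 1 of the 13 (Tbx6), against 13.0% of all genes. The windows of the 11 held 6 to 45 CpG dinucleotides with a median of 15, those of the 13 held 0 to 25 with a median of 6, and the median of all genes was 6. These are matches of letters in 1 window per gene, not sites of binding.

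The interval genes with roles in membranes included Gdpd3, which fell most. Gdpd3, a lysophospholipase D, read 5.52 and 5.58 log2 in the df/+ cortices and 7.57, 7.90 and 7.61 in the +/+ cortices. The 2 groups lay far apart, and the df/+ mice were nearly equal. Gdpd3 fell by 2.14 ± 0.16 log2 (SE, n = 2 against 3), to 22.6% of +/+ (95% interval 17.9% to 28.5%; limma adjusted p = 4.51e-09). It passed in each alternative that tested it, including each mouse left out. No detection call comes with these values, so how much of the df/+ reading is background was not tested. Cdipt, which makes phosphatidylinositol, read 10.28 and 9.97 in df/+ mice and 10.90, 10.92 and 10.72 in +/+ mice, a fall of 0.72 ± 0.10 log2 to 60.5% (adjusted p = 0.00064). Tlcd3b, a ceramide synthase, read 7.49 and 7.76 against 8.19, 8.27 and 8.55, at 61.0% of +/+ (adjusted p = 0.00855). Tmem219, a membrane protein, stood at 67.4% (adjusted p = 0.0473), and this call was lost with the first array of each sample, after renewed quantile normalisation and after cyclic loess, among others.

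Pagr1a, Slx1b and Cd2bp2, which encode nuclear proteins, fell. Pagr1a, a component of histone methyltransferase complexes, read 9.51 in df/+ mouse 1 and 8.61 in df/+ mouse 2, against 10.40, 10.25 and 10.23 in +/+ mice. Both df/+ cortices were low, but they differed more from each other than for any other measured interval gene. The fall was 1.23 ± 0.20 log2, to 42.6% of +/+ (95% interval 31.9% to 57.0%; limma adjusted p = 0.00617). Slx1b, a subunit of a structure-specific nuclease of DNA repair, read 8.11 and 7.76 against 8.76, 8.90 and 8.70, a fall of 0.85 ± 0.12 log2 to 55.4% (adjusted p = 0.00064). Cd2bp2, a splicing factor of the small nuclear ribonucleoproteins, read 7.71 and 7.72 against 8.31, 8.38 and 8.26, at 65.8% (adjusted p = 0.00617). The zinc finger transcription factor gene Maz (67.5%, adjusted p = 0.0591) and Hirip3, which binds a histone chaperone (74.4%, adjusted p = 0.125), did not pass the threshold, though in each the df/+ values were below every +/+ value. Kif22, a chromosome-binding kinesin, was at 94.0% (adjusted p = 0.978).

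Signalling genes fell together to about the same extent. Taok2, a MAP kinase kinase kinase, read 9.63 and 9.57 in df/+ mice against 10.42, 10.30 and 10.30 in +/+ mice, at 59.8% of +/+ (limma adjusted p = 0.00619). Kctd13, an adaptor for Cul3 ubiquitin ligases, read 9.71 and 9.63 against 10.47, 10.33 and 10.35, at 61.0% (adjusted p = 0.0294). Ppp4c, the catalytic subunit of protein phosphatase 4, read 8.65 and 8.35 against 9.21, 9.23 and 9.01, at 63.9% (adjusted p = 0.00674). In each of the 3 genes the df/+ and +/+ mice did not overlap. Tbc1d10b, an activator of Rab GTPase hydrolysis, stood at 63.8% (adjusted p = 0.0116). Among these signalling genes, Kctd13 lost its call after renewed quantile normalisation (limma adjusted p = 0.101) and after cyclic loess (0.0842). It also lost it when any 1 of the 5 mice was left out (0.0738 to 0.158 for the +/+ mice). Ppp4c and Tbc1d10b lost theirs without +/+ mouse 2 (limma adjusted p = 0.0981 and 0.0508). None of these genes kept its call when only the 5 cortices were fitted.

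Genes with neuronal roles were lower as well. Doc2a, a calcium sensor of transmitter release, read 9.16 and 9.03 in df/+ mice against 9.79, 9.68 and 9.81 in +/+ mice, a fall of 0.66 ± 0.12 log2 to 63.1% (limma adjusted p = 0.0116). Sez6l2, a neuronal membrane protein, read 10.26 and 10.36 against 11.10, 10.96 and 10.98, at 61.2% (adjusted p = 0.00619). Neither gene showed overlap between genotypes. Asphd1 was at 64.3% (adjusted p = 0.00267) and Ypel3, of a family of small zinc-binding proteins, at 71.3% (adjusted p = 0.0116), the mildest fall among the 15.

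Several metabolic, cytoskeletal and other genes of the interval were low without passing the threshold. Aldoa, a glycolytic aldolase, read 12.68 and 12.61 in df/+ mice against 13.03, 13.05 and 13.01 in +/+ mice. The +/+ mice were nearly equal and the groups did not overlap, but the difference of −0.39 ± 0.09 log2 had an adjusted p of 0.111 (limma). Coro1a, an actin-binding coronin, read 8.94 and 8.93 against 9.67, 9.59 and 9.09, so +/+ mouse 3 stood close to the df/+ mice (69.8% of +/+, adjusted p = 0.554). Bola2, which takes part in iron-sulphur cluster handling, was at 72.8% (adjusted p = 0.417), with both df/+ mice below all +/+ mice. It passed in the olfactory bulb (limma adjusted p = 0.00426) and the brain stem (0.00344). Slx1b, which shares most of the upstream sequence of Bola2, passed in the cortex, and the difference between these genes was not tested. Mvp, the major vault protein, read 7.22 and 7.32 against 7.45, 7.32 and 7.56, at 89.0% with the lowest +/+ mouse at the level of df/+ mouse 2 (adjusted p = 0.914).

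The other 8 genes that did not pass stood near the +/+ level or above it, and only for AI467606 were both df/+ mice below all +/+ mice. They were Tbx6, a mesoderm transcription factor (92.7%), Zg16 (92.9%), AI467606 (90.7%), Septin1 (97.8%), 4930451I11Rik (100.01%), Spn, a sialoglycoprotein of white blood cells (106.8%), Mylpf, a myosin light chain of muscle (100.4%), and Qprt, an enzyme of NAD synthesis (108.7%). Their adjusted p (limma) ran from 0.887 to 1. Qprt read 7.02 and 7.24 in df/+ mice and 7.05, 6.79 and 7.19 in +/+ mice, so the groups overlapped. In +/+ cortex the levels of the 8 genes ran from percentile 8.9 of all genes for Zg16 and 20.9 for Mylpf to 54.1 for 4930451I11Rik. How much of these readings is background was not tested, so they cannot show that these genes are unaffected by copy number. The 15 genes that fell had a median level at percentile 72.6 of all genes in +/+ cortex, and the 15 that did not pass at percentile 37.0. Across all genes, brighter ones were slightly lower in df/+ cortex: the median difference was −0.06 log2 in decile 8 of level and 0.03 in decile 3, a shift much smaller than the falls of the 15 genes.

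**Figure D2:**
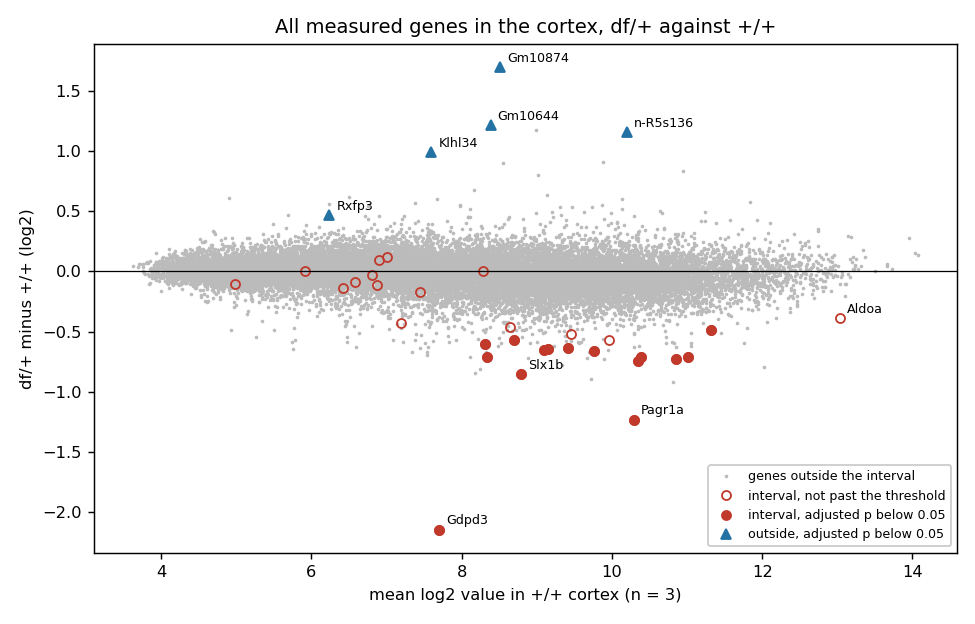
Difference between df/+ (n = 2) and +/+ (n = 3) cortex against the mean log2 value in +/+ cortex for 19938 genes, with interval genes as circles, filled where the adjusted p is below 0.05, and genes outside the interval past that threshold as triangles. Filled circles lie on the lower side, Gdpd3 lowest at −2.14, and the 5 triangles on the upper side. Genes outside the interval reach down to −0.92, so most filled circles lie within their range.

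Beside the deletion, dp/+ cortex gave values on the other side of +/+, with the same +/+ mice as controls. The mean of the interval genes was 0.33 and 0.37 log2 above the +/+ mean in the 2 dp/+ mice, at 127.1% of +/+. Each of the 15 genes that fell in df/+ cortex stood at 115% to 154% of +/+ in dp/+ cortex, with Gdpd3 at 153.6%, Kctd13 at 143.2%, Cd2bp2 at 139.5% and Taok2 at 137.1%. For 29 of the 30 genes both dp/+ mice lay above all +/+ mice, against 25.9% of all genes. The exception was Tlcd3b, at 8.49 and 8.56 against 8.55 in +/+ mouse 3. In this fit 0 genes passed the threshold in dp/+ cortex (limma; 3143 at an unadjusted p below 0.05). Mvp stood at 89.0% in df/+ and 137.4% in dp/+ cortex, and Qprt at 108.7% and 137.8%.

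The same 2 df/+ and 3 +/+ mice showed the fall in each other region. The mean of the interval genes in df/+ mice was 70.9% of +/+ in the cortex, 63.1% in the olfactory bulb, 67.3% in the brain stem and 70.5% in the cerebellum. Of the 15 genes that fell in the cortex, 15 also passed the threshold in the olfactory bulb, 13 in the brain stem and 11 in the cerebellum, and 11 passed in all regions. In these regions 0.256%, 0.211% and 0.0702% of all genes were lower past it, in the same order, and 0.0351% were higher in the bulb. The df/+ difference in the cortex was higher, that is less negative or positive, than the mean of the other regions for 22 of the 30 measured genes. These include genes without a fall in the cortex, such as Qprt (0.12 log2) and Mylpf (0.005). Among the 15 genes that fell, Tlcd3b, Doc2a, Sez6l2, Pagr1a and Tbc1d10b went the other way. The share of all genes with a higher difference in the cortex was not taken. The difference of the cortex from the mean of the other regions was tested in the same model, and 0 of 19938 genes passed (limma; 1302 at an unadjusted p below 0.05, or 6.53%). Of the 30 interval genes 2 had an unadjusted p below 0.05, Gdpd3 and Qprt. With array weights 1 gene passed (Gdpd3, adjusted p = 0.032), and without df/+ mouse 1 another did (Gm10754, named after its value was seen).

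Gdpd3 had the smallest p in that test. Its difference was −2.14 log2 in the cortex, −3.84 in the olfactory bulb, −2.58 in the brain stem and −2.78 in the cerebellum. The cortex difference from the other regions was 0.92 ± 0.18 log2 (unadjusted p = 1.65e-05, adjusted p = 0.328). In +/+ mice it read 7.57, 7.90 and 7.61 in the cortex and 9.80, 9.26 and 9.15 in the bulb, while in df/+ mice it read 5.52 and 5.58 in the cortex and 5.44 and 5.69 in the bulb. The +/+ readings thus differed between these regions and the df/+ readings hardly did. Doc2a was at 63.1% in the cortex, 60.9% in the bulb and 58.6% in the brain stem, and at 96.7% in the cerebellum. In +/+ mice Doc2a read 6.98, 7.07 and 7.24 in the cerebellum against 9.79, 9.68 and 9.81 in the cortex. How much of the low cerebellum reading of Doc2a is background was not tested. Its difference in the cortex against the mean of the others did not pass (difference −0.15 ± 0.13 log2, adjusted p = 0.925). Pagr1a was at 42.6% in the cortex, 44.8% in the bulb, 54.1% in the brain stem and 66.9% in the cerebellum (difference −0.36 ± 0.22, adjusted p = 0.841). Qprt was at 108.7% in the cortex and 81.7%, 97.5% and 86.1% in the bulb, cerebellum and brain stem (difference 0.30 ± 0.14, adjusted p = 0.737).

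**Figure D3:**
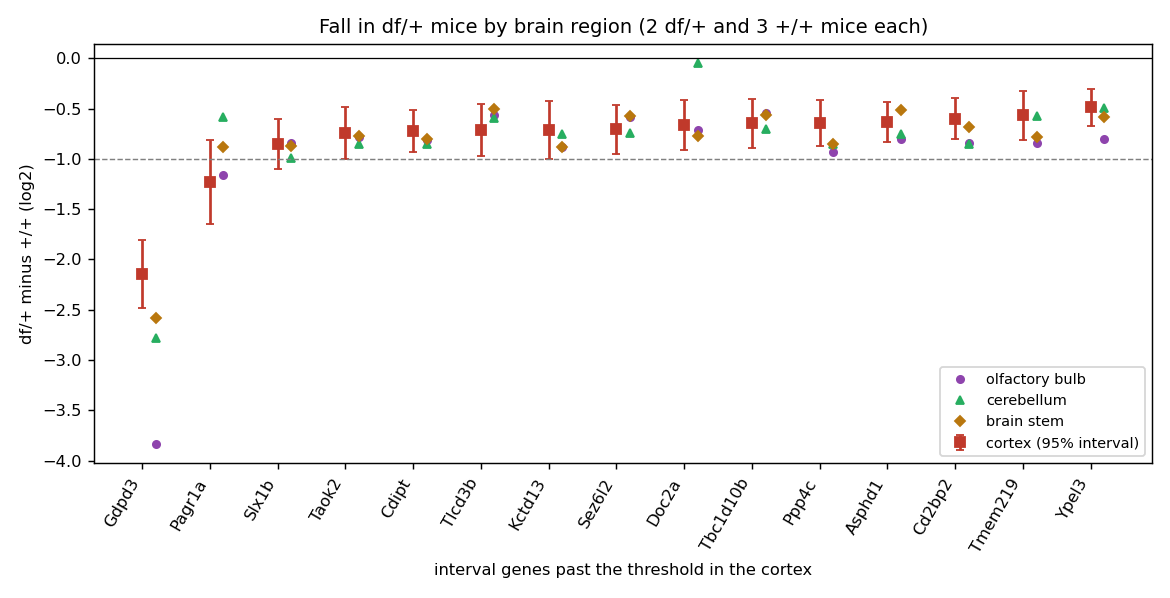
Difference between df/+ (n = 2) and +/+ (n = 3) mice on the log2 scale for the 15 interval genes past the threshold in the cortex, with the 95% interval for the cortex and the estimate for each other region. Most estimates lie between 0 and −1 in every region, and Gdpd3 runs from −2.14 in the cortex to −3.84 in the olfactory bulb.

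Outside the interval, 5 genes rose in df/+ cortex and 0 fell past the threshold (limma; 314 higher and 865 lower at an unadjusted p below 0.05). Over all genes 0.0251% were higher past it. Gm10874, a long noncoding RNA, read 10.01 and 10.41 log2 in df/+ mice against 8.50, 8.65 and 8.39 in +/+ mice, a rise of 1.70 ± 0.33 (SE) to 324% of +/+ (adjusted p = 0.0294). Gm10644, another long noncoding RNA, read 9.38 and 9.82 against 8.40, 8.46 and 8.29, at 232% (adjusted p = 0.041). For both genes the df/+ mice were well above all +/+ mice. The 5S ribosomal RNA gene n-R5s136 read 11.28 and 11.43 against 10.24, 10.10 and 10.26, at 223% (adjusted p = 0.0418). It belongs to a multigene family of near-identical copies, so which copy gave the signal is uncertain.

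The other 2 genes that rose encode proteins. Klhl34, of the kelch-like family, read 8.26 in df/+ mouse 1 and 8.91 in df/+ mouse 2 against 7.67, 7.63 and 7.48 in +/+ mice, at 198% (limma adjusted p = 0.0329). Rxfp3, the receptor of the neuropeptide relaxin-3, read 6.60 and 6.80 against 6.31, 6.20 and 6.20, at 138% (adjusted p = 0.041). In these 5 genes the df/+ values were above every +/+ value, as for 8.76% of all genes. In each of the 5 df/+ mouse 2 read higher than df/+ mouse 1, so the size of every rise depends on that mouse. With a +/+ mouse left out, only 1 of the 5 genes passed each time. It was Rxfp3 without +/+ mouse 1, Klhl34 without +/+ mouse 2 and n-R5s136 without +/+ mouse 3. The count of all risen genes, with other genes among them in the first case, was 3, 1 and 1 in that order. It was 3 when only the 5 cortices were fitted and 1 (Klhl34) with a trended robust prior.

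The values of these 5 genes in the other regions are given beside those of the cortex. In the olfactory bulb of df/+ mice Gm10874 differed by −0.96 log2 from +/+, in the cerebellum by 1.26 and in brain stem by 0.58. Gm10644 gave −0.40, 1.12 and 0.36 in that order, Klhl34 −0.33, 0.82 and −0.07, n-R5s136 −0.48, 0.79 and −0.01, and Rxfp3 −0.01, 0.11 and 0.15. The difference of the cortex from the mean of the others was 1.41 ± 0.36 for Gm10874 and 1.06 ± 0.26 for n-R5s136 (limma adjusted p = 0.569 for both), and it passed for none of the 5. In dp/+ cortex the same genes were also above +/+, by 0.77 log2 for Gm10874, 0.60 for Gm10644, 0.42 for Klhl34, 0.31 for Rxfp3 and 0.32 for n-R5s136, none past the threshold. Both dp/+ mice lay above all +/+ mice for each of them but n-R5s136, against 25.9% of all genes. The same +/+ mice serve both comparisons and the genes were chosen by the df/+ difference, so the dp/+ values are no independent check.

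**Figure D4:**
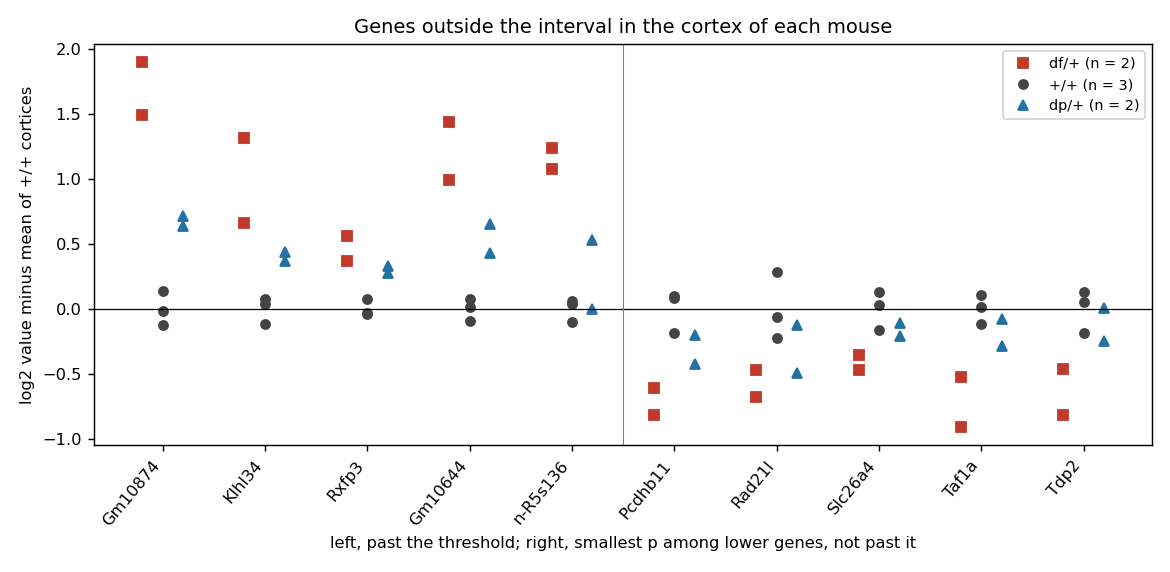
Log2 value in each cortex minus the mean of the +/+ cortices for the 5 genes outside the interval that rose in df/+ mice (left) and the 5 lower genes with the smallest p, none past the threshold (right), with 2 df/+, 3 +/+ and 2 dp/+ mice. Squares lie above all circles on the left and below them on the right, and most triangles lie between squares and circles.

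Among lower genes outside the interval, none passed. The smallest p belonged to Pcdhb11, a clustered protocadherin, which read 7.51 and 7.30 in df/+ mice against 7.94, 8.21 and 8.20 in +/+ mice (−0.71 ± 0.15 log2, limma adjusted p = 0.0552). Protocadherins of this cluster share sequence, so its reading is uncertain. Rad21l, a meiotic cohesin subunit, had −0.57, with −0.13 in a further probe set of the gene, Slc26a4, an anion exchanger, −0.41, Taf1a, a factor of RNA polymerase I, −0.72, and Tdp2, a DNA repair phosphodiesterase, −0.64. The count of lower genes was 2 without df/+ mouse 1, 4 without +/+ mouse 1, 2 without +/+ mouse 3, 1 (Pcdhb11) among brighter genes only, 6 with array weights and 2 (Rad21l and Taf1a) with the replicate number as a block.

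Genes beside the interval on chromosome 7 did not pass. Of the 20 measured genes nearest to each end, 0 passed on either side (limma; 1 lower and 0 higher at an unadjusted p below 0.05 on the Slx1b side, 0 lower and 1 higher on the Septin1 side). Over all genes 4.44% were lower and 1.57% higher at that p, so single genes of this kind do not stand out. The median difference was 0.01 log2 on the Slx1b side and 0.02 on the Septin1 side, against −0.01 over all genes. The nearest were Sult1a1 (−0.04) and Sgf29 (−0.13) on the first side and Gm4532 (0.07) and Zfp553 (−0.06) on the other. The smallest p belonged to Gsg1l, a protein of AMPA receptor complexes, with −0.22 ± 0.11, and to 1700008J07Rik with 0.37 ± 0.15 log2. Spns1, a lipid transporter, had 0.15.

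Lists of cell type, pathway and activity genes held no gene past the threshold. In 34 lists, 537 measured genes besides 1207 sensory receptor genes were covered. Of the 1744 in all, 0 were called (limma), and 22 were lower and 24 higher at an unadjusted p below 0.05, where 4.44% of all genes were lower and 1.57% higher. Among the 1207 sensory receptor genes only 0 were lower and 2 higher, so nearly all of both counts lay among the 537 other genes. The pooled counts therefore understate the share of those 537 genes on either side. A single member passed without df/+ mouse 1, Scarna13 (1.61 log2, adjusted p = 0.0351), and another without +/+ mouse 1, Snord57 (0.60, adjusted p = 0.0263). Medians of layers 5 and 6, interneurons, myelin, GABA receptors, the ERK chain, nucleolar RNAs and interferon genes lay so near 0 that their sign changed with at least 1 rescaling of the arrays. The self-test on simulated data of this design recovered 65% of genes that differed by 0.5 log2 and 97% of those that differed by 1. It planted 100 changed genes of each size with normally distributed noise, whereas 20 genes were called in these data. Fewer changed genes make the adjusted threshold stricter, so recovery here may be lower, and differences of these sizes or smaller could be missed.

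Cell type markers of the cortex differed little. The median difference was −0.05 log2 for 16 genes of layers 2 to 4, −0.05 for 18 genes of layers 5 and 6, 0.04 for 15 genes of pyramidal neurons and −0.01 for 18 genes of interneurons. In layers 2 to 4 the smallest p belonged to Stard8 (−0.20) and the homeobox gene Cux1 (−0.12), and in layers 5 and 6 to Nxph4 (0.22) and Cplx3 (−0.15). Slc17a6, a vesicular glutamate transporter, read 10.22 and 10.15 in df/+ mice against 9.92, 9.87 and 9.95 in +/+ mice (0.27 ± 0.13 log2, unadjusted p = 0.04). Tac1, which encodes substance P, read 10.44 and 10.03 against 10.70, 11.11 and 10.68 (−0.59 ± 0.25, unadjusted p = 0.025). Neither passed after adjustment. Slc17a6 is also listed for thalamic and hypothalamic neurons and Tac1 for striatal neurons, and which cells gave their signals was not tested.

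Markers of other cells and of neighbouring tissue were measured in the same samples. The median difference was 0.05 for 15 astrocyte genes, with Acsbg1 at 0.21 and Gjb6 at −0.35, and −0.001 for 17 genes of oligodendrocytes and myelin, with Ugt8a at −0.23 and Olig1 at 0.24. It was 0.06 for 14 microglia genes (Fcrls 0.29, Ptprc −0.22), 0.03 for 15 genes of blood vessels (Rgs5 −0.21, Tek −0.28) and 0.05 for 14 of meninges and collagens (Bgn −0.34, Ptgds 0.12). Blood cells had only 2 measured genes, Alas2 (0.30) and Slc4a1 (0.09). None of these genes passed.

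Choroid plexus genes had the largest median of any cell type list with more than 2 genes, 0.20 log2 for 11 genes. Their mean log2 value was 8.52 and 8.39 in df/+ mice against 8.35, 8.29 and 8.17 in +/+ mice, and the members with the smallest p were the folate receptor gene Folr1 (0.29) and the claudin gene Cldn2 (0.27), neither past the threshold. Striatal genes had a median of −0.09 over 12 genes, and their mean value was 10.42 and 10.33 against 10.49, 10.55 and 10.40, so the genotypes overlapped. The smallest p in that list belonged to Tac1 (−0.59), named above among interneuron genes, and then to Rarb, a retinoic acid receptor (−0.25). Hippocampal and dentate genes had 0.14 over 13, with means of 8.57 and 8.48 against 8.47, 8.44 and 8.36, and the smallest p belonged to Fibcd1 (0.27) and Spink8 (0.27). The share of each tissue in a dissected sample was not tested. Thalamic and hypothalamic genes had a median of 0.001 over 13, with Slc17a6 at 0.27 and oxytocin, Oxt, at 0.29.

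Synaptic and channel genes showed small differences. The median was 0.02 for 20 glutamate receptor genes, −0.04 for 13 GABA receptor and transporter genes, 0.01 for 22 genes of vesicle release, −0.06 for 20 of synaptic adhesion and scaffolds and −0.04 for 20 potassium channel genes. The kainate receptor gene Grik2 had −0.24 and the metabotropic receptor gene Grm8 −0.23, while Gabrb2 had 0.17 and Gabrb1 −0.15. Vamp1 had −0.21, Syt2 −0.18, Cntnap2 −0.17 and Homer1 −0.25. The calcium-activated potassium channel gene Kcnn2 read 9.39 and 9.33 in df/+ mice against 9.66, 9.73 and 9.78 in +/+ mice (−0.36 ± 0.12 log2, unadjusted p = 0.007), and Kcnd2 had −0.25.

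Partners of interval proteins did not pass either. In the ERK chain, to which the unmeasured interval gene Mapk3 belongs, the median of 18 genes was −0.04 log2. Dusp6, a phosphatase that acts on ERK kinases, read 10.23 and 10.71 in df/+ mice against 10.16, 10.12 and 9.93 in +/+ mice (0.40 ± 0.15, unadjusted p = 0.013), and the ETS factor gene Etv4 had 0.19. Among 15 partners of Kctd13 in the Cul3 and RhoA group the median was −0.07, with Cand1, which exchanges cullin adaptors, at −0.26 and Nedd8, the cullin modifier, at 0.27. Among 13 glycolytic genes besides Aldoa the median was 0.07, with Pfkl at 0.22 and Pgam1 at 0.18.

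Ribosomal protein genes had a median above that of all genes. Of 22 measured genes of cytosolic ribosomal proteins 0 passed, 7 were higher and 0 lower at an unadjusted p below 0.05 against 1.57% higher over all genes, and their median difference was 0.18 log2 (0.19 to 0.21 over 3 rescalings of the arrays). In 11 of the 22 both df/+ mice were above all +/+ mice, against 8.76% of all genes. Rps14 read 11.02 and 11.27 in df/+ mice against 10.68, 10.87 and 10.38 in +/+ mice, and Rpl10 12.85 and 12.88 against 12.64, 12.67 and 12.52. The +/+ mice also differed among themselves: the mean over the list was 10.89, 10.94 and 10.73 in +/+ mice and 11.07 and 10.99 in df/+ mice. Of 27 genes of oxidative phosphorylation 0 passed, with a median of 0.09, Cox7b at 0.31 and Ndufb3 at −0.36.

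Small nucleolar and Cajal body RNAs guide the modification of other RNAs. Of 60 measured genes 0 passed, 6 were higher and 2 lower at an unadjusted p below 0.05 (1.57% and 4.44% of all genes), and differences ran from −0.84 to 0.91 around a median of −0.003 log2. Snord53 read 7.66 and 7.01 in df/+ mice against 7.81, 8.47 and 8.25 in +/+ mice, and Snord49b read 11.93 and 11.61 against 11.25, 10.96 and 10.63. Such guide RNAs are small and lie within introns of host genes, so an array signal may also come from the host transcript.

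Immediate early genes, clock genes and glucocorticoid targets had medians below 0, also under 3 rescalings of the arrays, and heat shock genes had one above 0. The immediate early genes had a median of −0.12 over 20 genes, with Junb at 8.36 and 8.37 in df/+ mice against 8.77, 8.87 and 8.39 in +/+ mice and Homer1 at −0.25. Clock genes had −0.08 over 17, with Nr1d2 (−0.25) and Per3 (−0.28), and targets of glucocorticoids −0.20 over 15, with Nfkbia (−0.39) and Mt2 (0.25). The mean of the glucocorticoid list was 9.77 and 9.47 in df/+ mice against 9.74, 9.81 and 9.81 in +/+ mice. For that list df/+ mouse 1 thus lay within the +/+ range and only df/+ mouse 2 below it. The cold-inducible RNA-binding gene Rbm3 read 11.69 in df/+ mouse 1 and 10.76 in df/+ mouse 2 against 11.69, 12.17 and 12.20 in +/+ mice, so df/+ mouse 1 was level with the lowest +/+ mouse and df/+ mouse 2 stood far below, and Cirbp was at −0.37. Heat shock genes had a median of 0.03 over 16 (Dnajb4 −0.33, Hsp90aa1 0.24). None passed the threshold. The labels give no hour of dissection or housing.

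The remaining lists were close to the value of all genes. The median was −0.07 for 17 genes of progenitors and the cell cycle (Cdk6 −0.35, Pcna −0.30), 0.01 for 11 interferon genes (Ifi27 0.23, Psmb8 0.13), −0.03 for 10 housekeeping genes (Tbp −0.21, Ppia 0.20) and 0.02 for 1207 sensory receptor genes (Olfr1390 0.29, Olfr1249 0.20), against −0.01 for all genes. Members of the receptor families share sequence, so which gave a signal is uncertain.

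**Figure D5:**
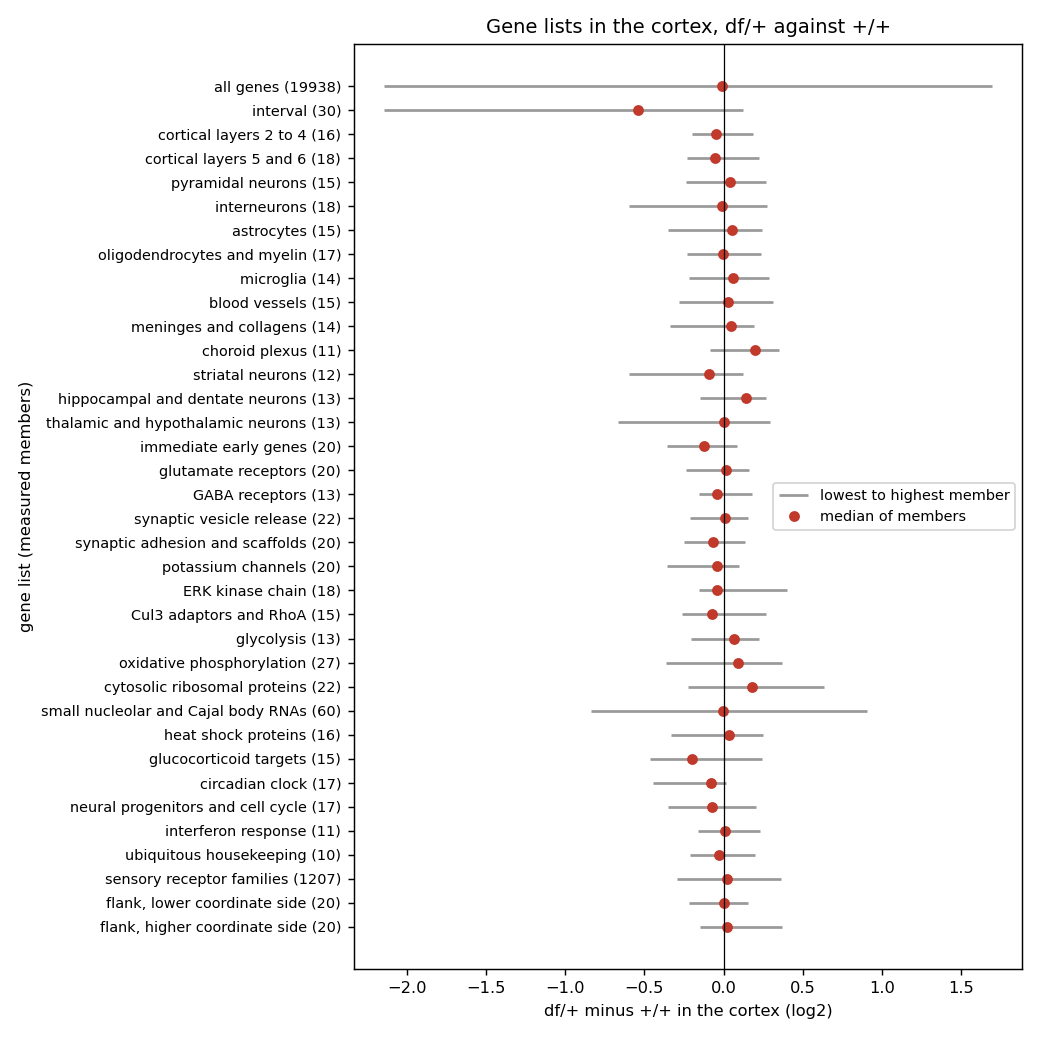
Median difference between df/+ (n = 2) and +/+ (n = 3) cortex on the log2 scale for each gene list with 10 or more measured genes, with a line from the lowest to the highest member and the number of measured members in brackets. The interval has a median of −0.54, and medians of the other lists lie between −0.20 and 0.20.

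The 4 genes with the next smallest p after Gdpd3 in the contrast of the cortex with the other regions did not pass, as Gdpd3 did not. The microRNA host gene Mir17hg differed by −0.29 log2 in the cortex and by 0.13, 0.18 and 0.16 in the olfactory bulb, cerebellum and brain stem (limma adjusted p = 0.444). The noncoding RNA of RNase MRP, Rmrp, was at 0.49 in the cortex and −0.50, −0.17 and −0.47 elsewhere. The dopamine receptor gene Drd3 was at −0.46 and 0.08, 0.22 and 0.20, and Malt1, an immune signalling protease, at −0.23 and 0.37, 0.10 and 0.15. In the cortex the df/+ mice lay below all +/+ mice for Mir17hg, Drd3 and Malt1 and above them for Rmrp. Over all genes 14.3% lay below in this way and 8.76% above. The contrast that picked these genes contains the cortex difference, so this separation is no further support.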

How the data were processed

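Total RNA from 4 brain regions of 8 mice was hybridised to 37 Affymetrix arrays. Per the submitters' processing notes the authors used RMA in Affymetrix Expression Console. The deposited values are log2 summaries of 35556 probe sets. No label states the base, and log2 was read from their range. Versions and genome build are not given in the sources used here.

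Repeat arrays were averaged, giving 31 region samples. Probe sets with 1 symbol (21789; 1621 had several and 12146 none) were named through the reference table (GRCm38.p6; 21698 matched, 91 kept their name), and the one with the highest mean stood for each of 19938 genes. limma 3.58.1 in R 4.3.3 fitted 12 region-by-genotype means to the 31 samples, taking the mouse as random block (consensus correlation 0.12), and gave the cortex df/+ minus +/+ contrast, the dp/+ contrast and the difference between the cortex and the mean of the other regions. P values were adjusted over all 19938 genes (Benjamini-Hochberg, threshold 0.05). On simulated data of 19938 genes the procedure made 7 false calls beside those recovered.

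The rule names all measured interval genes; up to 10 genes outside it per direction, or 5 where none passed; 5 genes for the regional contrast; up to 4 per list by p; and the 2 nearest flanking genes on each side. Members, lists and tests were chosen with earlier results of these data known. Alternatives took only first arrays, kept probe sets separate, kept only brighter genes, or used 3 rescalings of arrays (cyclic loess with 3 iterations), a trended robust prior, array weights, the cortex alone, no mouse block, a replicate block or 1 df/+ or +/+ mouse fewer. No batch is labelled, so none was tested.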

Additional observations from a re-analysis of the deposited data

How the results depend on the processing

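The mean difference of the interval genes was below 0 in every alternative listed under the methods: −0.62 log2 among brighter genes only, which leaves 19 interval genes without Gdpd3, −0.47 after renewed quantile normalisation within regions, −0.47 with arrays centred on their medians, −0.48 after cyclic loess, and −0.50 to −0.49 with each mouse left out. The count of interval genes that fell was 9 with the cortex samples of 3 genotypes alone, 1 with the 5 cortex samples alone, and 1 to 15 with each mouse left out. It was 13 to 18 under the others.

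Outside the interval the count of higher genes was 3 among brighter genes only, 3 after cyclic loess, 1 with a trended robust prior, 3 with the cortex of 3 genotypes alone, 3 with the 5 samples alone, 2 without a mouse block and 0 to 3 with each mouse left out. It was 7 with array weights and 4 or 5 under the others. That of lower genes was 1 among brighter genes, 6 with array weights, 2 with the replicate block and 0 to 4 with each mouse left out. The regional contrast called 1 gene with array weights and 0 to 1 with each mouse left out, and list members called were 0 to 1 there. Flanking genes gave 0 under these alternatives. Among values of single genes under single alternatives, 1822 kept their direction and side of the threshold, 106 lost a call, 16 gained one and 19 changed sign.

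Of the single genes, 4930451I11Rik turned to −0.00547 with array weights and −0.0108 with the replicate block, Mylpf to −0.0146 after renewed quantile normalisation and −0.0156 after cyclic loess, Sult1a1 to 0.00183 after renewed quantile normalisation and 0.0616 with array weights, and Zfp553 to 0.00629 with array weights. With each mouse left out, 4930451I11Rik ran from −0.0878 to 0.0881, Mylpf from −0.0928 to 0.103, Septin1 from −0.109 to 0.0167, Spns1 from −0.000203 to 0.292, Sult1a1 from −0.118 to 0.104, Gm4532 from −0.0520 to 0.156 and Zfp553 from −0.132 to 0.0230. None of these was past the threshold in either direction, and the cause was not tested.

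The replicate numbers mark different mice in the 2 genotypes. With them as a block 15 interval genes fell, and deviations of same-numbered mice correlated at 0.01 and −0.30. The deviations of the 2 df/+ mice are exact opposites, and df/+ mouse 2 with +/+ mouse 3 gave 0.30. These correlations therefore cannot show whether same-numbered mice are related. With 1 df/+ mouse left out, the other is assumed to vary like the remaining mice.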
